A study of Mus musculus with 5 samples.

Results

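The Notch receptors Notch1, Notch2, Notch3 and Notch4, their ligands Dll1, Dll3, Dll4, Jag1 and Jag2, and the ligand-selective modifier Lfng were followed through the chemical conversion of mouse fibroblasts to neural progenitor cells. Members were taken by gene name: every non-control probe whose name in the array files was one of these 10 genes, out of 36163 gene names on the array. That gave 13 probes of 55681, with 2 probes each for Notch1, Notch2 and Dll3 and 1 probe for each of the other 7 genes.

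Notch receptors are single-pass membrane proteins that are cleaved when a ligand on a neighbouring cell binds them, and the freed intracellular domain enters the nucleus and acts with the DNA-binding protein RBPJ. Delta-like and Jagged proteins are the ligands, and Lfng is a Golgi enzyme that adds a sugar to the receptor and so favours activation by Delta-like over Jagged ligands. In the developing brain this signalling holds neighbouring progenitors back from becoming neurons, and in fibroblasts and vessel walls Jag1, Notch2 and Notch3 are its better known parts.

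RNA came from 4 groups of mouse cells, on 1 array per sample. MEF was 1 sample of mouse embryonic fibroblasts, NPC was 1 sample of brain-derived neural progenitors used as the control, and ciNPC were neural progenitors induced with chemical cocktails and hypoxia, with 1 sample from passage 5 (p5) and 2 from passage 13 (p13). The labels give no strain, age, chemical or oxygen level for any group, nor whether the p13 samples came from separate cultures, so p-values cover only how far these samples scatter, and that scatter may be technical. The question was how close ciNPC had come to NPC and how far from MEF.

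Of the spots that were not controls, between 47.9% and 57.6% were well above background, by the software's own mark, on each array, and 0 spots were saturated. ciNPC p13 replicate 2 stood apart: its spike-in slope of 0.803 was out of the software's range, against 0.915 to 0.987 on the other 4 arrays, and its negative controls averaged 102 against 62.3 to 81.6. MEF and NPC lay on slide 1 and the 3 ciNPC arrays on slide 2, so the cell type and the slide cannot be told apart when ciNPC is set against either of them. Of 7 neural progenitor markers, 6 were higher in ciNPC than in MEF, and their median log2 difference from NPC was -0.42. Of 7 fibroblast markers, 5 were lower than in MEF and 6 were higher than in NPC. In bulk RNA, fewer cells of a type and less RNA per cell cannot be told apart.

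The promoter sequences of Lfng, Dll1, Dll3 and Jag1 are shown because the differences from MEF described below were in probes of these 4 genes. They are the 250 bases before the gene start, 5′ to 3′ on the gene's own strand, from RefSeq on GRCm38.p6, a build other than that of the probes. All 10 members were found in the table, with 11 windows. Capitals mark TGGGAA, the core of the RBPJ site, which reads TTCCCA on the other strand. They also mark the E-box CAGCTG, a palindrome, and the E-box CAGGTG, which reads CACCTG on the other strand. Both strands were searched, and no marked run overlapped another.
Lfng, chr5:140607091-140607340, plus strand: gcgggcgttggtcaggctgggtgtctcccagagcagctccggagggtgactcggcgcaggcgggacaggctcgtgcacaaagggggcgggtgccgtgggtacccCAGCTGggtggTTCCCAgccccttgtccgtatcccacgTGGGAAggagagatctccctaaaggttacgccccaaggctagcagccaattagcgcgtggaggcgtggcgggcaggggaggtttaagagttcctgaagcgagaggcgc
Dll1, chr17:15376933-15377182, minus strand: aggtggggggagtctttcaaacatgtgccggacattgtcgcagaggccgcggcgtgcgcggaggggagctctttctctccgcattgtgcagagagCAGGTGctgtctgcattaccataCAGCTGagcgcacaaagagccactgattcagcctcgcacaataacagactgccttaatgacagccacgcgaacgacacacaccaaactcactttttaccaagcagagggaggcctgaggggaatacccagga
Dll3, chr7:28301786-28302035, minus strand: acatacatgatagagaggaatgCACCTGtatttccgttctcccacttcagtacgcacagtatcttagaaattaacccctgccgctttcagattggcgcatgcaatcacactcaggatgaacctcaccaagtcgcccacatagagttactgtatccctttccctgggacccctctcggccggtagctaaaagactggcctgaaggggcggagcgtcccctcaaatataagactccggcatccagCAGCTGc
Jag1, chr2:137116521-137116770, minus strand: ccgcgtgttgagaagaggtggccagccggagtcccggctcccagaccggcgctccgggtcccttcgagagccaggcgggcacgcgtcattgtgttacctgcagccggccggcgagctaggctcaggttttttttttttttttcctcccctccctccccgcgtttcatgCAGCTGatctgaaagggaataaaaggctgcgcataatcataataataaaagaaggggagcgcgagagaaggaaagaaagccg
The Lfng window held the RBPJ core on each strand, as TTCCCA at 135 and TGGGAA at 108 bases before the start, and CAGCTG 146 bases before it. Dll1 held CAGGTG at 155 and CAGCTG at 132 bases, Dll3 held CACCTG at 228 and CAGCTG at 7 bases, and Jag1 held CAGCTG at 82 bases before the start. None of these letters was found in the windows of Notch1, Notch2, Notch3, Notch4, Dll4 or Jag2, or in the other Dll1 window; those of Notch3, Notch4 and Jag2 and the other Dll1 window lie before another transcript start of RefSeq, not before the gene's annotated start. Of all 32851 windows of this length, 21.6% held TGGGAA, 13.0% held CAGCTG and 17.2% held CAGGTG. A match is a run of letters and not a measured site.

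Levels are given on a log2 scale relative to each array's own 75th percentile, which is 0, and 1 unit is a 2-fold difference. They are compared within a probe only. Testing required a signal well above background throughout 1 or more groups. Of the 13 member probes 11 met this, for 8 of the 10 genes, and the Dll4 and Jag2 probes did not. ciNPC was compared with MEF and with NPC in limma over 35593 probes, the 3 ciNPC arrays as 1 cell type, and passing meant at least 2-fold with an adjusted p (Benjamini-Hochberg) under 0.05. For MEF and NPC, with 1 array each, the spread was taken to be that of the ciNPC arrays, which includes any difference between p5 and p13.

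Against MEF, the probes of Dll1 and Lfng and 1 of the 2 Dll3 probes passed as higher in ciNPC, and that of Jag1 passed as lower. Of the 11 probes tested, 3 passed as higher, where 12.5% of all probes did, and 1 as lower, where 11.3% did (23.8% in either direction). The median difference of the 11 probes was 0.52 and that of all probes was -0.10. The Dll1 probe and the downstream probes of Dll3 and Notch1 were dim in MEF and passed the background filter only through other groups, so these counts describe the members and support nothing further. With normexp background correction the Dll1 probe, the downstream Dll3 probe and the Lfng probe still passed, at smaller log2 differences. These were 2.39, 1.47 and 3.04 (limma adjusted p = 0.000101, 0.00342 and 3.15e-06), which are 5.25-fold, 2.78-fold and 8.24-fold. The upstream Dll3 probe passed neither there (0.79, limma adjusted p = 0.0813) nor in the main fit (1.22, limma adjusted p = 0.0699). Against NPC, 0 of 11 passed by limma, where 2.79% of all probes did (2.74% higher and 0.0506% lower), with 2 at an unadjusted p under 0.05, and the median difference was -0.27 against -0.12 over all probes.

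**Figure D1:**
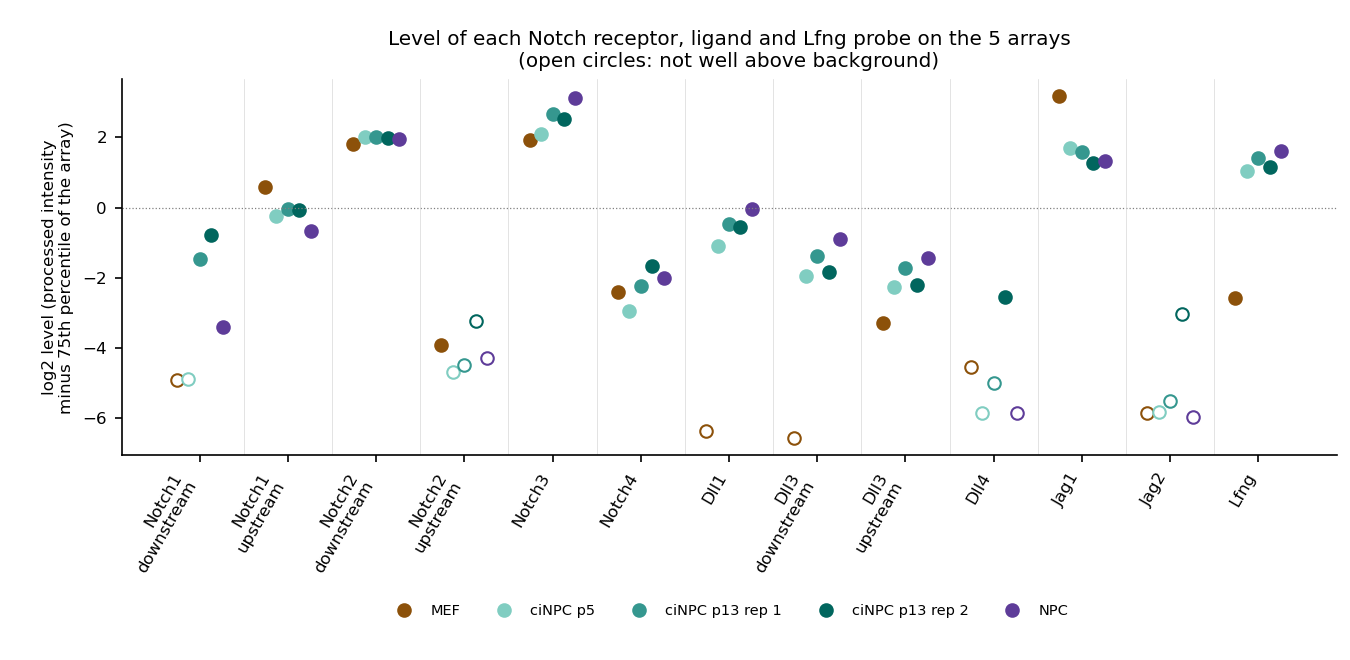
Level of each of the 13 member probes (horizontal axis) on the 5 arrays, on the log2 scale relative to the array's 75th percentile (vertical axis). Colours are arrays and open circles are probes not well above background. Dll1 and the downstream Dll3 probe were open in MEF only, Jag1 was highest in MEF at 3.17, and Dll4 and Jag2 were open on at least 4 arrays.

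**Figure D2:**
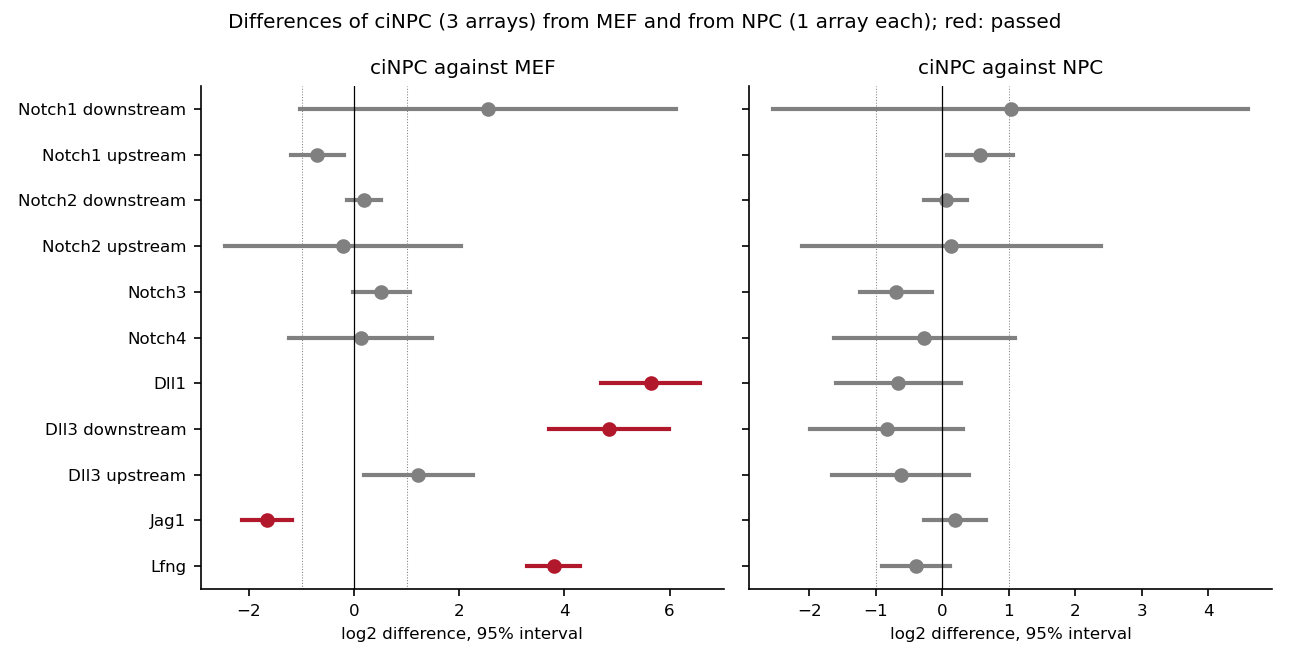
Log2 difference of the mean of the 3 ciNPC arrays from MEF (left) and from NPC (right) for the 11 tested probes, with 95% intervals from limma; dotted lines mark 2-fold and red marks probes that passed. The 4 red probes are Dll1, the downstream Dll3 probe, Lfng and Jag1, all against MEF.

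Among the receptors, Notch1 is the one most often studied in neural progenitors, and its 2 probes gave different orders of the cells. The upstream probe, at base 5898 of the transcript (chr2:26319440-26319499 on mm9, minus strand), was well above background on all 5 arrays, with levels of 0.59 in MEF, -0.23 in ciNPC p5, -0.03 and -0.07 in ciNPC p13 replicates 1 and 2, and -0.68 in NPC. MEF was the highest and NPC the lowest, with all 3 ciNPC arrays between them and no overlap. The difference of ciNPC from MEF was -0.70 (SE 0.21, limma adjusted p = 0.0397), which missed 2-fold and so did not pass, and 0.57 above NPC (95% interval 0.07 to 1.07, limma adjusted p = 0.313). NPC differed from MEF by -1.27, 2.42-fold lower, with no replicate check.

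The downstream Notch1 probe, at base 8221 (chr2:26314630-26314689), lay 4810 bases from the upstream probe on the genome and was dim in part of the samples. Its levels were -4.92 in MEF, -4.89 in ciNPC p5, -1.46 and -0.79 in ciNPC p13, and -3.41 in NPC. It was not well above background in MEF or ciNPC p5, and the p13 arrays were higher than all others. In the comparison of passages, p13 exceeded p5 by at least 5.25-fold against the lowest well-above-background signal of the p5 array (log2 difference 3.77, SE 0.79, limma adjusted p = 0.00274), the only member probe of 11 to pass there. Of all probes, 0.66% passed as higher in p13 and 0.216% as lower, 0.877% in all, and 3 member probes had an unadjusted p under 0.05. That call was lost with quantile normalization (3.26, limma adjusted p = 0.167), with the deposited values (3.26, limma adjusted p = 0.166) and without an intensity trend (limma adjusted p = 0.679). Without ciNPC p13 replicate 2 the difference was 3.43, and without replicate 1 it was 4.10, both with no test. Against MEF it did not pass (2.54, 95% interval -1.03 to 6.12, limma adjusted p = 0.247) until ciNPC p5 was left out (3.80, limma adjusted p = 0.000254), and the same held against NPC (1.03, limma adjusted p = 0.80, and 2.28, limma adjusted p = 0.0400 without p5). The upstream probe differed by 0.18 between the passages (95% interval -0.22 to 0.57). Over the 5 arrays the levels of the probes correlated at -0.19, a description only.

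Notch2, a receptor of mesenchymal and neural cells, had 2 probes as well. The downstream one (base 10129, chr3:97953914-97953973, plus strand) read 1.81 in MEF, 2.01 in ciNPC p5, 2.02 and 1.99 in p13, and 1.95 in NPC. The ciNPC arrays spanned 0.03, and MEF and NPC both lay below them by a small margin. The difference was 0.19 from MEF (95% interval -0.13 to 0.51) and 0.05 from NPC (-0.27 to 0.37), neither past the threshold. The upstream Notch2 probe (base 7448, chr3:97951233-97951292) was well above background in MEF alone, at -3.92, with -4.67, -4.49 and -3.24 in ciNPC p5 and p13 and -4.27 in NPC, and its interval against MEF ran from -2.46 to 2.03. Its brightest reading was on ciNPC p13 replicate 2, and the probes of this gene correlated at -0.26 over the 5 arrays.

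Because the probes of a gene could part ways, the 60-base upstream probes of Notch1, Notch2 and Dll3 are printed, in lower case and as the array files give them.
Notch1 upstream probe: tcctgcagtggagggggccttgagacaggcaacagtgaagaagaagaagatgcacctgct
Notch2 upstream probe: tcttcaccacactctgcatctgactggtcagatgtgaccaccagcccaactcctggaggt
Dll3 upstream probe: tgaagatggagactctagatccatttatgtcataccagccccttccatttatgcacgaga

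**Figure D3:**
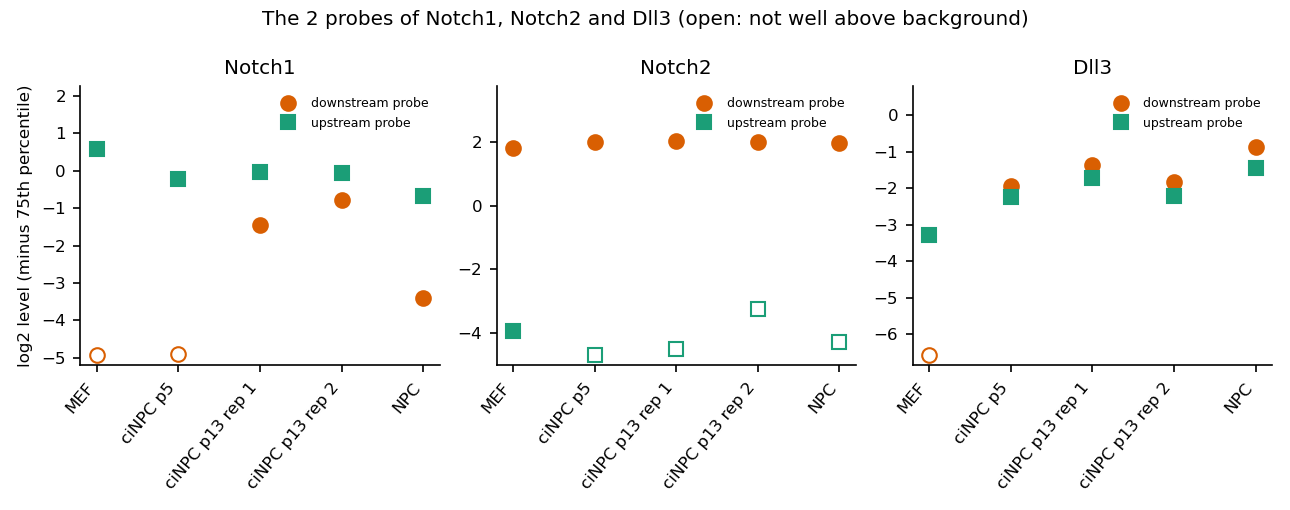
Log2 level (vertical axis) of the upstream (squares) and downstream (circles) probes of Notch1, Notch2 and Dll3 on the 5 arrays (horizontal axis), open where not well above background. The Dll3 probes followed each other outside MEF, while the downstream Notch1 probe was high in both p13 arrays only and the upstream Notch2 probe was well above background in MEF alone.

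Notch3, the receptor of vascular smooth muscle that is also present in neural stem cells, was lowest in MEF and highest in NPC, opposite to the upstream Notch1 probe (chr17:32257848-32257907, minus strand). It read 1.91 in MEF, 2.10 in ciNPC p5, 2.67 and 2.52 in p13 and 3.12 in NPC. The ciNPC arrays lay between MEF and NPC, p5 nearest to MEF. The gaps from p5 to MEF and from the p13 mean to NPC were smaller than the ciNPC span of 0.57. These neighbours were therefore not separated. ciNPC differed from MEF by 0.52 (SE 0.23, limma adjusted p = 0.129) and from NPC by -0.69 (SE 0.23, limma adjusted p = 0.255), and its mean was 62.0% of the NPC level. p13 exceeded p5 by 0.50 (SE 0.10, limma adjusted p = 0.00267), which is under 2-fold and did not pass. Smooth muscle and pericyte markers were lower than in MEF for 5 of 7 genes and higher than in NPC for 5 of 7, the summed level of the list running from 909 times the 75th-percentile signal in MEF to between 160 and 203 in ciNPC and 5.26 in NPC, where 1 of 7 was well above background, an order opposite to that of Notch3. Their part in the result was not tested.

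Notch4, best known from endothelium (chr17:34725120-34725179, plus strand), read -2.41 in MEF, -2.95 in ciNPC p5, -2.24 and -1.66 in p13 and -2.02 in NPC. The ciNPC arrays spanned 1.28 and overlapped both MEF and NPC, and the difference was 0.13 from MEF (95% interval -1.23 to 1.49) and -0.27 from NPC (-1.63 to 1.09). Of 8 endothelial markers, Cdh5, Tie1 and Tek were well above background on no array, between 1 and 5 were on each array, and the summed level ran from 4.49 to 7.29 in ciNPC, against 17.0 in MEF and 6.81 in NPC. That sum was mostly from a single marker, at a level of 4.04 in MEF, where the next highest was -1.85. Its probe differed between ciNPC and MEF by -1.58, while the other tested probe of that gene gave 1.27.

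Dll1, the ligand that neural progenitors and young neurons present to their neighbours (chr17:15504623-15504682, minus strand), was spotted 10 times on each array. Its level was -6.35 in MEF, -1.10 in ciNPC p5, -0.47 and -0.55 in p13, and -0.05 in NPC. MEF was far below the rest, all 10 of its spots not well above background at 5.98 to 14.9 units of intensity, and the spots of the other arrays ran from 268 to 621. The spread between spots was 0.045 to 0.054 (SD, log2) on the 4 bright arrays. ciNPC exceeded MEF by at least 12.0-fold (measured log2 difference 5.64, SE 0.39, limma adjusted p = 0.000133, higher on 3 of 3 ciNPC arrays) and NPC exceeded it by at least 18.9-fold with no replicate check. Both bounds hold for the main background correction only, and with normexp background ciNPC exceeded MEF 5.25-fold. ciNPC lay below NPC on each array, its mean at 63.4% of the NPC level, a difference of -0.66 (95% interval -1.60 to 0.28, limma adjusted p = 0.534) that did not pass. p13 and p5 differed by 0.59 (95% interval -0.23 to 1.41).

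**Figure D4:**
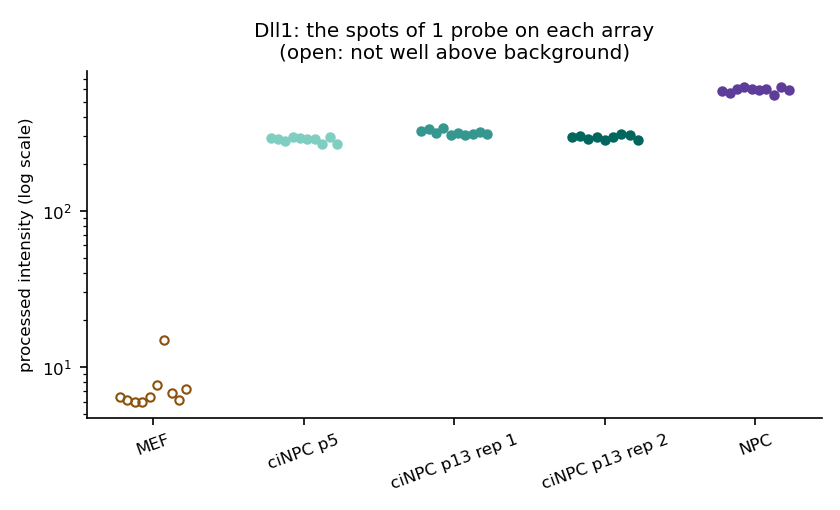
Processed intensity (log scale, not scaled between arrays) of the kept spots of the Dll1 probe on each of the 5 arrays. The MEF spots, open because they were not well above background, sat between 5.98 and 14.9 and all others between 268 and 621.

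Dll3, a divergent ligand that acts on Notch within its own cell and does not activate it on neighbours, followed the same order. The downstream probe (base 1914, chr7:29078763-29078822, minus strand) read -6.57 in MEF, where it was not well above background, -1.96 in ciNPC p5, -1.37 and -1.84 in p13 and -0.89 in NPC. MEF was lowest and NPC highest, with no overlap. ciNPC exceeded MEF by at least 5.93-fold (measured log2 difference 4.85, SE 0.48, limma adjusted p = 0.000518) and NPC exceeded MEF by at least 10.6-fold. These bounds too hold for the main background correction only, and with normexp background ciNPC exceeded MEF 2.78-fold. ciNPC was at 56.0% of the NPC level, a difference of -0.84 (95% interval -1.98 to 0.31) that did not pass.

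The upstream Dll3 probe, 298 bases away on the genome (base 1730, chr7:29079061-29079120), correlated with it at 0.95 over the 5 arrays but gave a smaller span. It read -3.28 in MEF, here well above background, -2.26 in ciNPC p5, -1.71 and -2.21 in p13 and -1.44 in NPC, the same order. The difference from MEF was 1.22 (SE 0.43, limma adjusted p = 0.0699) and did not pass, but it passed without ciNPC p13 replicate 2 (1.30, limma adjusted p = 0.0237) and among only the probes above background on all 5 arrays (1.22, limma adjusted p = 0.0361). Under other alternatives the upstream probe fell below 2-fold against MEF and did not pass. It was 0.86 with quantile normalization (limma adjusted p = 0.320) and with the deposited values (limma adjusted p = 0.321), and 0.79 with normexp background (limma adjusted p = 0.0813). The difference of this probe from NPC was -0.62 (95% interval -1.65 to 0.41).

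Dll4, the ligand of arterial and sprouting endothelium (chr2:119160779-119160838, plus strand), read -4.55 in MEF, -5.84 in ciNPC p5, -4.99 and -2.55 in p13 and -5.86 in NPC. It was well above background on ciNPC p13 replicate 2 alone, the array with the out-of-range spike-in slope, and was not tested. The other p13 array lay 2.43 lower, so the reading was not shared by the replicate.

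Jag1, the ligand of mesenchyme and vessel walls and of part of the neural stem cells (chr2:136907433-136907492, minus strand), fell. Its level was 3.17 in MEF, 1.70 in ciNPC p5, 1.57 and 1.26 in p13 and 1.32 in NPC. MEF was above all others, and the ciNPC arrays overlapped NPC. ciNPC was at 31.8% of the MEF level (log2 difference -1.65, SE 0.20, limma adjusted p = 0.00106, lower on 3 of 3 arrays) and differed from NPC by 0.19 (95% interval -0.28 to 0.66). NPC was 3.60-fold below MEF, short of the 4-fold used for that untested pair. The summed level of the 7 fibroblast markers was likewise highest in MEF, at 1921, against 217 to 293 in ciNPC and 69.1 in NPC. In NPC that sum was nearly all from a single marker, at a level of 6.09, the next highest being -1.56. That marker differed between ciNPC and NPC by -0.11 and did not pass. The part of these markers in the fall of Jag1 was not tested. Jag2, the other Jagged ligand (chr12:114146887-114146946, minus strand), was well above background on no array, at -5.84 in MEF, -5.81, -5.51 and -3.02 in ciNPC p5 and p13 and -5.95 in NPC. Its highest reading was again on ciNPC p13 replicate 2, and it was not tested.

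Lfng, the fringe enzyme (chr5:141091224-141091283, plus strand), had the narrowest span over the ciNPC arrays of the 3 genes with a probe that passed as higher than in MEF. It read -2.59 in MEF, 1.03 in ciNPC p5, 1.42 and 1.17 in p13 and 1.60 in NPC, well above background on all 5 arrays. MEF was lowest by far and NPC highest, with the ciNPC arrays spanning 0.39. ciNPC exceeded MEF 13.9-fold (log2 difference 3.79, SE 0.21, limma adjusted p = 5.98e-05, higher on 3 of 3 arrays), and NPC exceeded it 18.2-fold. ciNPC was at 76.1% of the NPC level, a difference of -0.39 (95% interval -0.90 to 0.11, limma adjusted p = 0.487) that did not pass.

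For NPC against MEF, with 1 array each and no test, 3 of the 11 probes were at least 4-fold higher, Dll1, the downstream Dll3 probe and Lfng, where 6.87% of all probes were, and 0 were at least 4-fold lower, where 7.57% were (14.4% in either direction). The position of each ciNPC array between MEF (0) and NPC (1) for these probes, with dim MEF values raised to the lowest well-above-background signal, was 0.845 ± 0.081 for Dll1, 0.754 ± 0.091 for Dll3 and 0.906 ± 0.047 for Lfng (SD, n = 3). For Dll1 the arrays stood at 0.752 for p5 and at 0.900 and 0.882 for p13. All 3 probes stood below 1 on all 3 ciNPC arrays, but they were chosen for a high reading on the single NPC array, which favours positions below 1. Raising the dim MEF value lowered the positions of Dll1 and Dll3, while the Lfng value in MEF needed no raising. The positions of the 3 probes therefore cannot be ranked against each other.

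The committed neuron precursor markers, whose cells carry much of the Dll1 and Dll3 in brain, were mixed: of 7, 2 were higher than in MEF and 1 was lower. Elavl3, a neuronal RNA-binding protein, was higher by 2.64 (limma adjusted p = 0.019, but 0.0676 with quantile normalization, 0.0675 with the deposited values and 0.115 without a trend). Its ciNPC levels spread widely, at -1.42 in p5 and 0.45 and -0.54 in p13, and p13 exceeded p5 by 1.37. Neurog2, a proneural factor, was well above background on no array. The summed level of the list was 7.71 in MEF, 4.07 to 5.56 in ciNPC and 4.24 in NPC. The MEF sum was mostly that of the marker that was lower in ciNPC, at a level of 2.77 in MEF, where the next highest was -1.62. It is therefore no measure of the list as a whole. Of the presomitic mesoderm markers, the other tissue where Dll1, Dll3 and Lfng act together, 1 of 4 was higher than in MEF and their summed level ran from 0.462 to 0.672 over all 5 arrays. The part of either cell type in the result was not tested.

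Among 14210 named genes, the profiles closest to Dll1 over the 5 arrays were those of Prex1 and Grip1, with root-mean-square differences of 0.069 and 0.075 on the log2 scale after centring. For Lfng they were Aldoc, an enzyme of glycolysis and an astrocyte and radial glia marker, at 0.055, and Klhl32, at 0.085. Dll1 in MEF, at -6.35, was not well above background, whereas Prex1 was on all 5 arrays. In MEF that match thus sets a background reading against a measured level. The other members with a tested brightest probe spanned less than 4-fold by it, and likeness over 5 arrays says nothing of shared function.

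The rest of the pathway was described by 42 further genes, each by its brightest probe, all of them tested. Against MEF, 9 were higher, where 12.5% of all probes were, and 7 were lower, where 11.3% were, with a median difference of -0.13. Against NPC 3 were higher, where 2.74% of all probes were, with a median of -0.16. These counts, and those by role below, describe the list and were not tested as a set. Among other ligands and modulators, Dner, a neuronal membrane protein, was higher than in MEF by 2.41 (limma adjusted p = 0.000752), and the imprinted inhibitor Dlk1 was higher than in NPC by 7.73 (limma adjusted p = 1.2e-05) but not than in MEF (0.68, limma adjusted p = 0.0577). Of 4 fringes and glycosyltransferases 1 was higher, Mfng, another fringe, by 3.36 (SE 0.37, limma adjusted p = 0.000738), which like Lfng was near its NPC level (-0.11, limma adjusted p = 0.925). Of 4 genes for ligand endocytosis, the ubiquitin ligases Neurl1a and Neurl1b were higher by 1.13 and 1.14. With normexp background correction Mfng was higher by 1.95 and still passed.

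Among 9 cleavage genes, Adam17, a metalloprotease, was higher by 1.63 (its other probe gave 0.51 and did not pass), while the convertase Furin was lower at -1.73 and the presenilin Psen2 at -1.92, Furin remaining 1.04 above NPC (limma adjusted p = 0.0171). Among the nuclear genes, Rbpj itself differed by -0.13 (limma adjusted p = 0.515) and did not pass. Of 8 turnover genes, the Deltex proteins Dtx1 and Dtx4 were higher by 3.88 and 1.60, and Dtx3 and Numbl were lower at -1.32 and -1.73. Numbl remained 1.24 above NPC and passed there, also with normexp background (1.14) but not without a trend. Adam17 did not pass without ciNPC p13 replicate 1 (1.62, limma adjusted p = 0.0604), with quantile normalization (1.35, limma adjusted p = 0.0715) or with the deposited values. Furin did not pass against NPC in those same rescalings, with normexp background (0.99), without p13 replicate 2 (0.96) or without a trend, and Dtx1 was 2.62 with normexp and still passed.

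Of 6 response genes, Hes5 and Nrarp were higher, by at least 28.5-fold and at least 3.60-fold against an MEF signal that was not well above background, and Heyl and Hey1 were lower. Both bounds hold for the main background correction only. With normexp background the log difference of Hes5 was smaller, at 3.29 (limma adjusted p = 7.65e-05), and still passed. Heyl was well above background in MEF and on 1 of 3 ciNPC arrays, p5, and with the dim p13 arrays at their floor it differed by -3.96, and Hey1 differed by -1.36. Neither passed with quantile normalization (limma adjusted p = 0.0557 and 0.0564), with the deposited values or without a trend, and Nrarp did not pass with normexp background (0.91, limma adjusted p = 0.0893). Hes5, a repressor that holds progenitors undifferentiated, was the only pathway gene to pass between passages, higher in p13 than in p5 by 1.12 (limma adjusted p = 0.0012). That call was lost with quantile normalization (1.14, limma adjusted p = 0.142), with the deposited values (1.14, limma adjusted p = 0.140) and without a trend (1.12, limma adjusted p = 0.679), and the probe was not tested under the filter for probes above background on all 5 arrays. Hes1 did not pass against MEF (-1.16, limma adjusted p = 0.0703), but it passed with normexp background (-1.02, limma adjusted p = 0.0321), without a filter on dim probes, with the all-array filter and without either p13 array.

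**Figure D5:**
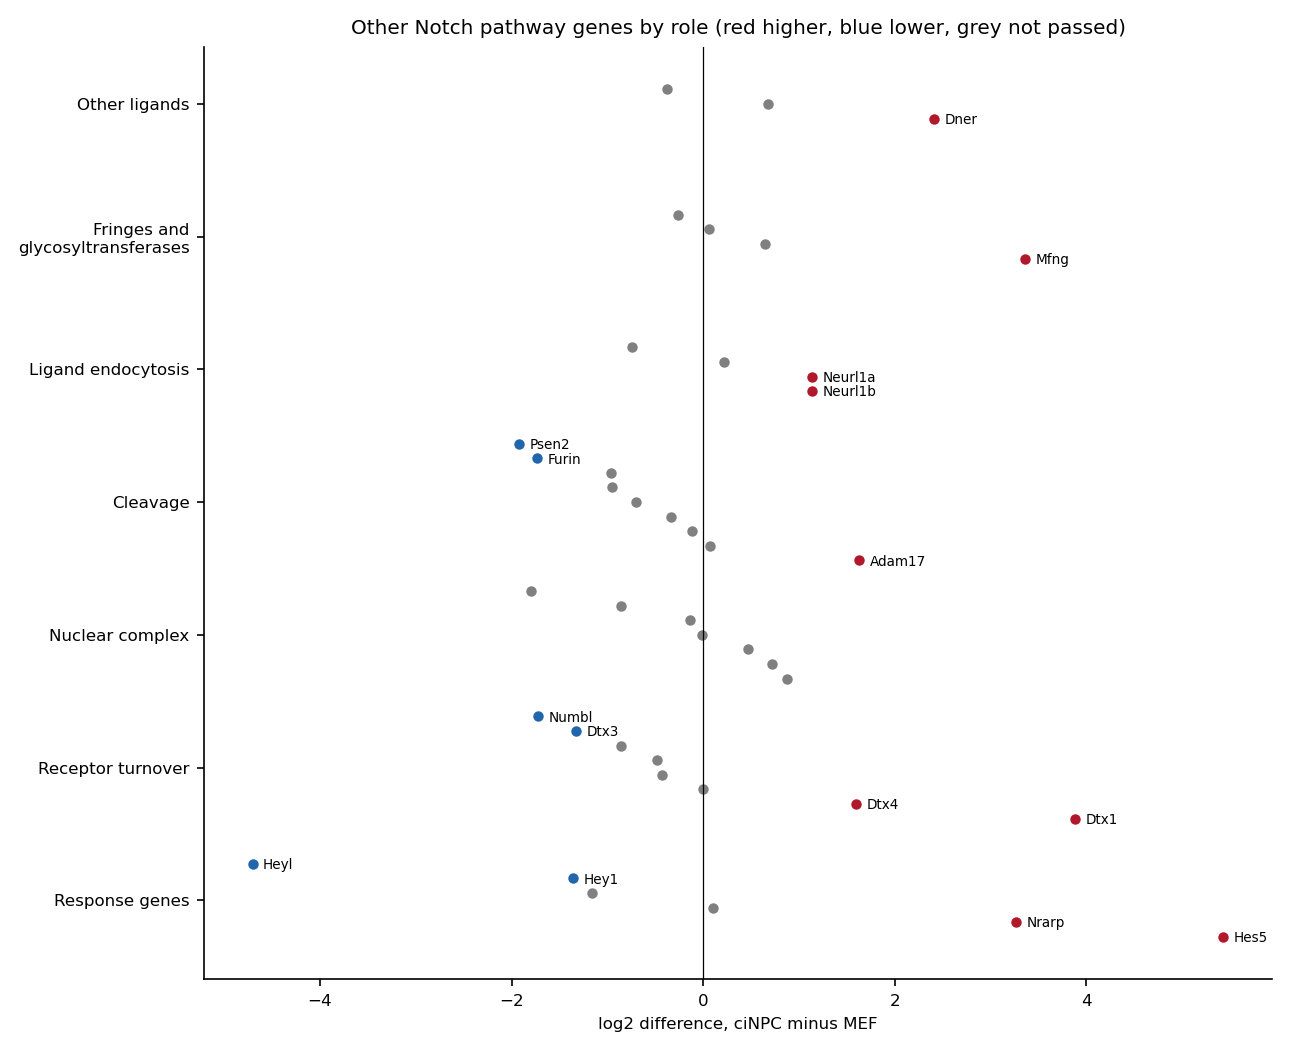
Log2 difference of ciNPC from MEF (horizontal axis) of other Notch pathway genes, grouped by role (vertical axis); red passed as higher, blue as lower, grey did not pass. The 9 red genes include Dtx1 at 3.88 and Mfng at 3.36, and the blue genes include Psen2 at -1.92; Hes5 and Nrarp were measured against a dim MEF signal, and Heyl against dim p13 signals, so their points overstate what was measured above background.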

How the data were processed

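RNA of 5 mouse samples was labelled with Cy3 and hybridised to 1-colour 60-base Agilent arrays, 1 per sample. Per the submitters' processing notes, spots were extracted with Agilent Feature Extraction 10.7.1.1. The deposited array files hold each spot's processed signal as an intensity, background-subtracted but not scaled between arrays, and per the file headers probes are placed on mm9. The authors' deposited value table holds log2 values whose normalization is not given in the sources used here; its columns shared a median of 5.64 and correlated at 0.995 to 0.999 with the matching array, and it was used as an alternative only.

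Levels were log2 of the intensity minus the array's 75th percentile, as the mean of a probe's spots once outlier spots had been dropped. ciNPC against MEF and against NPC came from 1 fit of 3 cell types in limma 3.58.1 (R 4.3.3, lmFit and eBayes with an intensity trend, 2 residual degrees of freedom), and p13 against p5 from a fit of 4 groups with 1 residual degree of freedom. The residual spread of that second fit came from the 2 p13 arrays alone, including replicate 2 with its out-of-range spike-in slope. p5 had 1 array and no spread of its own. p-values were adjusted by Benjamini-Hochberg over 35593 probes. NPC against MEF had no test and used 4-fold, after dimmer values were raised to each array's floor, its lowest signal marked well above background. Bounds written as "at least" divide the brighter group's mean by that floor, and they hold for the main background correction only. Summed levels of marker lists add 2 to the power of each level. The script was tested on simulated data.

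All members and their probes were named, the pathway genes that passed (up to 4 per role), and for members whose brightest probe was tested and at least 4-fold apart between arrays the 2 genes of nearest profile; Hes1, Rbpj and the marker genes were named after their values were seen. A gene of the pathway list and a marker gene enter the counts but are not reported here by name. Members and lists were chosen with earlier results of these data known. Protein sequences and mm9 gene models were not used here. The number of arrays limits the precision. The alternatives tried were other normalizations, background corrections and filters, all spots kept, genes in place of probes, no intensity trend, and leaving out each ciNPC array.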

Additional observations from a re-analysis of the deposited data

How the results depend on the processing

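The calls of Dll1, the downstream Dll3 probe, Jag1 and Lfng against MEF kept their direction and side of the threshold under the alternatives that tested them, though smaller with normexp background, and the count of member probes higher ran from 3 to 4 without single ciNPC arrays. With the all-array filter that count was 2, Lfng and the upstream Dll3 probe, and neither Dll1 nor the downstream Dll3 probe was tested. For genes by their brightest probe it was 2, Dll1 and Lfng, and the downstream Dll3 probe was not tested. Against NPC that count ran from 0 to 1, and all probes passing from 1268 to 1890 (994 with all arrays); it was 578 with quantile normalization, 573 with the deposited values, 583 for probes above background on all 5 arrays and 338 without a trend, where 1 pathway gene was higher in place of 3. For p13 against p5, member probes and pathway genes higher were both 0 with quantile normalization, the deposited values, the all-array filter and no trend, and member probes were 0 for genes by their brightest probe; all probes passing were then 3, 3, 119, 0 and 146. For NPC against MEF, 2-fold gave 5 member probes higher, 2 lower and 13402 of all probes, and normexp background gave 2969. Percentile scaling over detected probes moved the median of all probes from -0.10 to 0.06 against MEF and from -0.12 to 0.01 against NPC.

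Directions turned for small differences that passed nowhere. Against MEF, Notch4 was -0.045 with quantile normalization and with the deposited values and ran from -0.18 without ciNPC p13 replicate 2 to 0.46 without p5, and the upstream Notch2 probe was 0.30 with normexp and ran from -0.66 without p13 replicate 2 to 0.054 without p5. Against NPC, that Notch2 probe was -0.55 with quantile normalization and with the deposited values and ran from -0.31 without p13 replicate 2 to 0.41 without p5, and Notch4 was 0.079 with normexp and ran from -0.58 without p13 replicate 2 to 0.066 without p5. Between passages, the upstream Notch2 probe was -0.21 and the upstream Dll3 probe -0.15 with quantile normalization and with the deposited values, and the downstream Notch2 probe was -0.021 with normexp. Rbpj against MEF was 0.024 and Mfng against NPC 0.020 with percentile scaling over detected probes, and Mfng ran from -0.34 to 0.039 without single ciNPC arrays. The cause was not tested.

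Slide could not be fitted as a block, since it lies with the cell type. No paired analysis was possible because the groups compared share fewer than 2 replicate numbers.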
